A study of Homo sapiens with 12 samples.

Results

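The long noncoding RNA H19, the growth factor gene IGF2 and the receptor gene IGF2R were followed across wild-type and PARP3-/- A549 cells. They are 3 of the 25365 names in the expression table, the imprinted locus of H19 and IGF2 and the receptor that clears the IGF2 protein. H19 was chosen by its level, which differed strongly between the genotypes in these same libraries, while IGF2 and IGF2R came with it as its partner genes, with earlier results of these data known. The genotype values of H19 are therefore given as a description, with no test, and nothing rests on them. A549 is a human cell line from a lung adenocarcinoma. Wild-type cells and cells labelled PARP3-/- received vehicle (DMSO) or 1 µM pyridostatin for 24 h, and each of the 4 groups held 3 biological replicates (12 libraries in all). Pyridostatin is a small molecule that stabilizes G-quadruplex (G4) DNA. The PARP3-/- line was made with a Cas9 deletion in the first exon of PARP3 and cloned by serial dilution, so properties of a clone and effects of the mutation cannot be told apart.

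H19 and IGF2 are the textbook pair of imprinted genes. H19 is transcribed from the chromosome inherited from the mother and IGF2 from the chromosome inherited from the father. Both use shared enhancers, and the choice is set by DNA methylation of a control region between the genes, where the unmethylated copy binds the insulator protein CTCF. IGF2 encodes a fetal growth factor that signals through IGF1R and the insulin receptor. IGF2R, which is imprinted in mice, encodes the mannose 6-phosphate receptor, which carries IGF2 to lysosomes for degradation and sorts lysosomal enzymes.

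H19 is also the host of a microRNA gene, MIR675, whose 2 products are its best defined sequence output. The hairpin (RefSeq, GRCh38.p14, chr11:1996759-1996831, minus strand) lies in the first exon of H19, and both mature products fall within an exon in 4 of the 12 H19 transcripts of GENCODE release 29. The hairpin is shown 5′ to 3′ with the mature arms in capitals, and each arm is then shown with its seed (bases 2 to 8) in capitals.
MIR675 hairpin: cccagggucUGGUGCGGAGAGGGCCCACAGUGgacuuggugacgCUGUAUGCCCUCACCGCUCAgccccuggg
hsa-miR-675-5p: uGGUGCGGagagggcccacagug
hsa-miR-675-3p: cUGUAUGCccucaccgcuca
The seeds of the arms differ from each other. Among the 2545 mature human microRNAs compared, the seed of the 5p arm was shared with hsa-miR-4466 and that of the 3p arm with no other. MIR675 as a row of its own was listed at 0 FPKM in all 12 libraries, which were made from polyadenylated RNA, so the values below are for the host transcript and say nothing about the mature microRNAs.

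Expression was deposited as FPKM, that is, fragments counted per kilobase of a transcript and scaled to mapped reads. Tests used limma on log2(FPKM + 1), with p-values adjusted over the 11881 genes whose mean level was 1 FPKM or more. This scale understates the change of a gene with low FPKM. H19 and IGF2R passed this filter, and IGF2, whose group means stayed below 1 FPKM, did not, so IGF2 was tested by exact permutation of its FPKM. The PARP3 transcript itself was at 3.73 ± 0.293 FPKM in wild type and 4.41 ± 0.447 FPKM in the libraries labelled PARP3-/- with vehicle, and at 3.79 ± 0.243 and 4.58 ± 0.245 FPKM with pyridostatin (SD, n = 3 each). The transcript level was thus not lower under the PARP3-/- label. It was 1.18 times the wild-type mean with vehicle and 1.21 times with pyridostatin, and limma called neither (adjusted p = 0.136 and 0.0781). Permuting the genotype within each treatment over the 12 libraries, added after the values were seen, gave a difference of 0.738 FPKM. Its exact p was 0.005, the smallest of 400 permutations. FPKM is counted over a whole transcript, so the PARP3 level does not test for a deletion within the first exon. The paper shows that deletion in a sequencing trace, and gives immunoblots of the PARP3-/- A549 cells with PARP3 put back. It also reports that putting PARP3 back raised rearrangements and complemented the sensitivity to pyridostatin. Each genotype difference below is signed by the sample labels. Depth, estimated from the lowest FPKM values, was about 24100000 to 34100000 reads per library. The epithelial markers KRT8, KRT18, KRT19, EPCAM, CDH1 and KRT7 were all above 0, summing to 6912 to 8630 FPKM. Of 6 alveolar type II markers, ABCA3 alone had a mean of 1 FPKM or more and SFTPB was at 0. ABCA3 was called higher under the PARP3-/- label (log2 fold changes 0.23 and 0.20, limma adjusted p = 0.00658 and 0.0124), and the sum of the 6 was 9.07 to 9.97 FPKM in wild type and 10.7 to 11.7 FPKM there. The sum of 3 endothelial markers was 0.116 to 0.213 and 0.245 to 0.375 FPKM in the same order. The sums of 4 fibroblast markers (0.607 to 1.03 FPKM in wild type, 1.24 to 1.68 FPKM in the libraries labelled PARP3-/-) and of 3 leukocyte markers (2.81 to 4.42 and 4.36 to 6.26 FPKM) were higher in the latter within each treatment. These sums came mainly from COL1A1 and CD14, while PTPRC stayed at or below 0.00776 FPKM and CD3E was at 0. Among the epithelial markers KRT19 was higher in the libraries labelled PARP3-/- (log2 fold change 0.85 with either treatment, limma adjusted p = 2.25e-05 and 2.08e-05). CDH1 (−0.42 and −0.51, limma adjusted p = 0.00117 and 2.98e-04) and EPCAM (−0.53 and −0.48, limma adjusted p = 0.00126 and 0.00206) were lower there. The part of these differences in the results below was not tested.

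H19 was more abundant than IGF2 in every library. With vehicle, the wild-type libraries were at 9.85, 10.99 and 9.57 FPKM and the libraries labelled PARP3-/- at 1.11, 1.59 and 1.32 FPKM. With pyridostatin, the values were 6.63, 8.07 and 7.63 FPKM in wild type and 0.799, 0.803 and 0.781 FPKM in the libraries labelled PARP3-/-. The genotypes were far apart with either treatment. The lowest wild-type value with pyridostatin was well above the highest value of any library labelled PARP3-/-. Group means were 10.1 ± 0.753 and 1.34 ± 0.243 FPKM with vehicle, a level 7.56-fold higher in wild type. With pyridostatin they were 7.44 ± 0.737 and 0.794 ± 0.0117 FPKM, a level 9.37-fold higher in wild type (SD, n = 3 each). On the log2(FPKM + 1) scale the differences were −2.25 and −2.23, each with a standard error of 0.0857. Among genes above 0, H19 stood above 66.6% of them in wild-type vehicle libraries and above 36.4% in those labelled PARP3-/-. In bulk RNA, fewer cells that express a gene and less RNA per cell cannot be told apart.

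**Figure D1:**
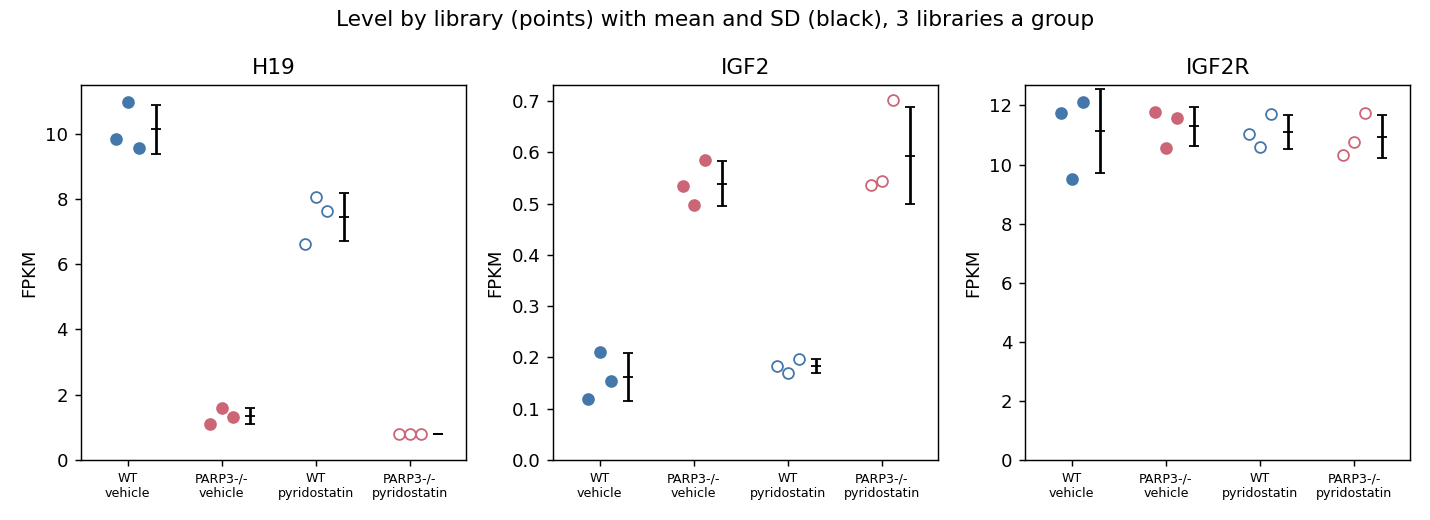
FPKM of H19, IGF2 and IGF2R (vertical axes, each from 0) in the 4 groups, with 1 point per library (filled for vehicle, open for pyridostatin; blue for wild type, red for the libraries labelled PARP3-/-) and black marks for the mean and SD of 3 libraries. H19 sat at 6.63 to 10.99 FPKM in wild type and 0.781 to 1.59 FPKM under the PARP3-/- label, IGF2 lay the other way round at 0.119 to 0.211 and 0.498 to 0.702 FPKM, and IGF2R overlapped in all groups.

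IGF2 was low in all libraries and was higher in those labelled PARP3-/-. With vehicle, IGF2 was at 0.119, 0.211 and 0.154 FPKM in wild type and at 0.534, 0.498 and 0.585 FPKM under the PARP3-/- label. With pyridostatin, it was at 0.183, 0.169 and 0.197 FPKM in wild type and at 0.536, 0.543 and 0.702 FPKM in those labelled PARP3-/-. No library of one genotype overlapped with the other under either treatment. The means were 0.161 ± 0.0461 and 0.539 ± 0.0438 FPKM with vehicle, a ratio of 3.34, and 0.183 ± 0.0136 and 0.594 ± 0.0941 FPKM with pyridostatin, a ratio of 3.25 (SD, n = 3 each). Each comparison gave p = 0.1 in an exact two-sided permutation test, the smallest that 3 libraries against 3 allow. Permuting the genotype within each treatment over all 12 libraries, a test added after the values were seen, gave a difference of 0.394 FPKM with exact p = 0.005, the smallest of its 400 permutations. Among the 2821 genes with a mean of 0.1 to 1 FPKM, 6.66% were likewise higher without overlap with both treatments. With every gene above 0 kept in the fit, the log2 fold changes of IGF2 were 0.41 (standard error 0.0428, limma adjusted p = 3.36e-04) and 0.43 (limma adjusted p = 2.49e-04), where 4.58% and 4.88% of genes were called higher. Over the alternatives that kept it in the fit, its limma adjusted p ran from 3.36e-04 to 0.00105 with vehicle and from 2.49e-04 to 8.22e-04 with pyridostatin.

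The depth behind the lowest values is thin. An FPKM value translates into reads only for a given transcript length, and the 11 IGF2 transcripts of GENCODE release 29 run from 482 to 5585 bases. At the longest, the vehicle values correspond to about 17 to 32 reads per wild-type library and 71 to 91 per library labelled PARP3-/-. At the median length of 1583 bases they correspond to about 4 to 8 and 18 to 23 reads. For H19, whose longest transcript has 2348 bases, the same estimate gave 524 to 673 and 68 to 91 reads, and at its median of 925 bases 177 to 228 and 23 to 31 reads. In the pyridostatin libraries labelled PARP3-/- it was 46 to 49 reads at the longest and 15 to 17 at the median length, fewer than for IGF2 there (81 to 103 and 21 to 27). IGF2R was the best covered, with about 3752 to 5152 reads per vehicle library at its longest transcript of 14044 bases. These read numbers are approximate and cover counting only.

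The balance between H19 and IGF2 was compared on the FPKM scale, which is per length. In wild-type vehicle libraries H19 was 82.5, 52.1 and 62.0 times the level of IGF2, and in the vehicle libraries labelled PARP3-/- 2.08, 3.20 and 2.25 times. With pyridostatin the ratios were 36.2, 47.7 and 38.8 in wild type and 1.49, 1.48 and 1.11 in the libraries labelled PARP3-/-. H19 thus remained above IGF2 in all 12 libraries, by a wide margin in wild type and by little in the pyridostatin libraries labelled PARP3-/-. The mean ratios were 65.5 ± 15.5, 2.51 ± 0.605, 40.9 ± 6.0 and 1.36 ± 0.215 in that order of groups (SD, n = 3 each). Because H19 was chosen for its genotype difference, the ratio between genotypes is a description too.

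**Figure D2:**
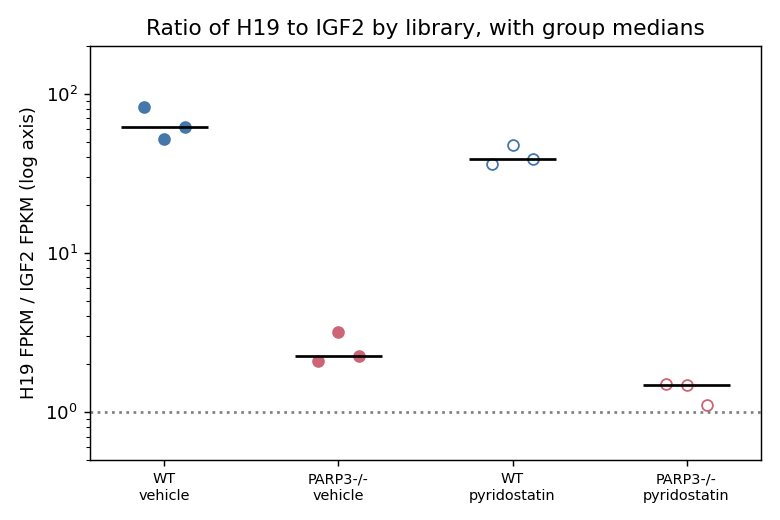
Ratio of H19 FPKM to IGF2 FPKM (vertical log axis) in each of the 12 libraries, with group medians as black lines and a dotted line at equal levels. The wild-type libraries lay between 36.2 and 82.5 and those labelled PARP3-/- between 1.11 and 3.20.

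IGF2R, the clearance receptor, showed no difference that could be resolved. Its vehicle values were 11.8, 9.50 and 12.1 FPKM in wild type and 11.8, 10.5 and 11.6 FPKM in the libraries labelled PARP3-/-. With pyridostatin they were 11.03, 10.6 and 11.7 FPKM in wild type and 10.3, 10.8 and 11.7 FPKM in the libraries labelled PARP3-/-. All 4 groups overlapped, and wild-type vehicle replicate 2 was the lowest library. The log2 fold change between genotypes was 0.03 with vehicle (95% interval −0.16 to 0.21, limma adjusted p = 0.909) and −0.02 with pyridostatin (−0.21 to 0.16, limma adjusted p = 0.922). With vehicle 9.41% of all tested genes were called between the genotypes in either direction, and with pyridostatin 10.9%. Both intervals include small changes in either direction and do not show that the levels are equal. On the FPKM scale IGF2R had the highest mean of the 3 genes in all 4 groups. Under the PARP3-/- label its means were 11.3 ± 0.661 FPKM with vehicle and 10.9 ± 0.727 FPKM with pyridostatin (SD, n = 3 each). In wild type they were 11.1 ± 1.42 and 11.1 ± 0.578 FPKM. The wild-type mean of H19 with vehicle, 10.1 FPKM, lay within the spread of IGF2R there.

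Pyridostatin lowered H19 in both genotypes, a contrast that the choice of H19 did not use. In wild type the mean level went from 10.1 to 7.44 FPKM, 0.734 of the vehicle level, and all 3 treated libraries lay below all 3 vehicle libraries. The log2 fold change was −0.40 (standard error 0.0857, 95% interval −0.59 to −0.21, limma adjusted p = 0.0277), where 1.38% of tested genes were called lower and 4.17% in either direction. In the libraries labelled PARP3-/- the mean went from 1.34 to 0.794 FPKM, 0.592 of the vehicle level, again without overlap (exact two-sided permutation test, p = 0.1). Here the log2 fold change was −0.38 (standard error 0.0857, 95% interval −0.57 to −0.19, limma adjusted p = 0.0298), where 2.52% of tested genes were called lower and 5.56% in either direction. Permuting the treatment within each genotype over the 12 libraries, added after the values were seen, gave a mean difference of −1.62 FPKM with exact p = 0.005, the smallest of 400 permutations. Both limma calls were close to the threshold. Over the alternatives the adjusted p ran from 0.0164 to 0.144 in wild type and from 0.00809 to 0.106 in the libraries labelled PARP3-/-. The wild-type call was lost with a pseudocount of 0.1 or with only the libraries compared, the other with no filter on the mean, and each in 5 of the 12 fits without 1 library. In wild type these left out any of the 3 vehicle libraries or pyridostatin replicate 1 or 3, with adjusted p-values of 0.0534 to 0.122. In the libraries labelled PARP3-/- they left out vehicle replicate 2 or 3 or any of the 3 pyridostatin libraries, with adjusted p-values of 0.0706 to 0.106.

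IGF2 and IGF2R did not pass a test with pyridostatin. IGF2 overlapped between vehicle and pyridostatin in each genotype (exact two-sided permutation test, p = 0.5 for both), and over both genotypes the mean difference was 0.0381 FPKM (exact permutation p = 0.275). IGF2R had log2 fold changes of 0.00 (95% interval −0.18 to 0.19, limma adjusted p = 0.988) in wild type and −0.04 (−0.23 to 0.14, limma adjusted p = 0.838) in the other genotype.

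Whether the genotype difference depended on pyridostatin was asked with the interaction term. For H19 it was 0.02 on the log2 scale (95% interval −0.25 to 0.29, limma adjusted p = 0.999), and for IGF2R −0.05 (−0.31 to 0.21, limma adjusted p = 0.999). For IGF2, with every gene above 0 in the fit, it was 0.02 (95% interval −0.11 to 0.16, limma adjusted p = 0.991). No tested gene was called for this term by limma (0%), and 521 of the 11881 had an unadjusted p under 0.05. On this scale the changes of H19 with pyridostatin were −0.40 and −0.38, while the ratios of its FPKM were 0.734 and 0.592, and with a pseudocount of 0.1 in place of 1 its interaction was −0.23 (limma adjusted p = 0.999, within 0.938 to 1.00 over its alternatives).

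The genes around H19 were taken from RefSeq (GRCh38.p14) by their spans within 1 Mb. The table holds 54 such neighbours, of which 14 were tested. With vehicle 0 of the 14 were called higher in PARP3-/- and 1 lower, and with pyridostatin 1 and 1. The shares over all tested genes were 6.4% higher and 3.01% lower with vehicle and 7.07% higher and 3.85% lower with pyridostatin, to be read beside at most 1 call among 14 genes in each direction. The lower gene was MUC5B, a gel-forming airway mucin, with 6.24 ± 1.11 FPKM in wild type and 1.82 ± 0.134 FPKM in the libraries labelled PARP3-/- with vehicle (SD, n = 3 each). Its log2 fold changes were −1.35 and −1.34 with the 2 treatments (limma adjusted p = 3.04e-05 and 3.34e-05). The higher gene was AP2A2, a subunit of the clathrin adaptor AP-2, by 0.15 with pyridostatin (limma adjusted p = 0.0350). Both genes lay more than 500 kb from H19. Of the 5 tested neighbours within 500 kb, 0 were called with either treatment. For the 14 as a set, the median was 0.01 with vehicle and −0.01 with pyridostatin, beside 0.01 and 0.01 over all tested genes.

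**Figure D3:**
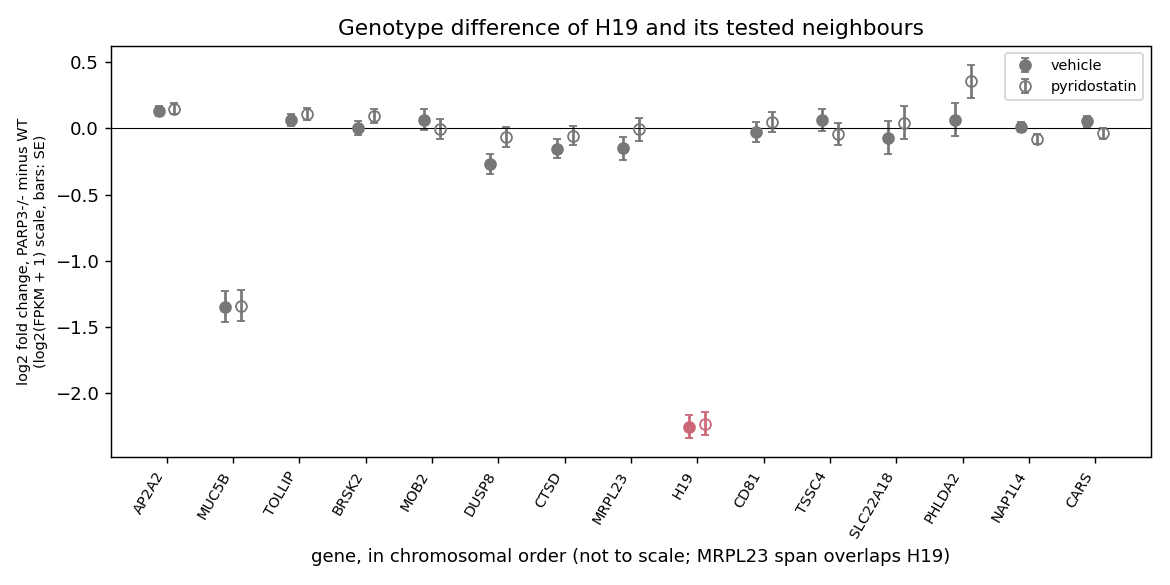
Log2 fold change between genotypes (vertical axis, log2(FPKM + 1) scale, bars for the standard error) of H19, in red, and its 14 tested neighbours, in grey, in chromosomal order and not to scale, with vehicle (filled) and pyridostatin (open). H19 lay at −2.25 and −2.23 and MUC5B at −1.35 and −1.34, while the other neighbours stayed between −0.27 and 0.36.

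Most genes next to H19 were listed at or near 0. Of the 16 neighbours within 200 kb, 7 were listed at no more than 0.001 FPKM in every library, among them MIR675, MIR483, TNNT3 and the read-through INS-IGF2, and 1 was tested. A value of 0 in this table is not proof of absence, since NEU1 and EHMT2, which most cells express, were also listed at 0 throughout, and polyadenylated libraries would miss short microRNAs. The tested gene, MRPL23, encodes a mitochondrial ribosomal protein and has a span that overlaps H19. It was at 101 ± 15.1 FPKM in wild type and 90.0 ± 2.90 FPKM in the libraries labelled PARP3-/- with vehicle (SD, n = 3 each), with log2 fold changes of −0.15 and −0.01 (limma adjusted p = 0.356 and 0.977). The libraries were stranded, and whether reads were assigned by strand is not given in the sources used here. IGF2 likewise shares sequence with INS-IGF2, so how reads were divided between them bears on its level. LSP1, a leukocyte-specific actin-binding protein, reached group means of 0.238 to 0.305 FPKM, and SYT8, TNNI2, MRPL23-AS1, IGF2-AS, INS and TH all had group means below 0.1 FPKM. MIR4298, LINC01150 and MIR4686 were listed at 0.

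In the wider 11p15 imprinted cluster, 7 of 21 listed genes were tested. With H19, which carries no test, set aside, 1 was called with vehicle and none with pyridostatin, where 9.41% and 10.9% of all tested genes were called. It was OSBPL5, an oxysterol-binding protein gene, which was higher in the libraries labelled PARP3-/- with vehicle (log2 fold change 0.29, limma adjusted p = 0.00449) and had a log2 fold change of 0.12 with pyridostatin (limma adjusted p = 0.170). PHLDA2, a maternally expressed growth regulator of the placenta, had log2 fold changes of 0.07 and 0.36 (limma adjusted p = 0.831 and 0.104). CDKN1C, the maternally expressed inhibitor of cyclin-dependent kinases, was at 0.102 to 0.112 FPKM in the group means, and the antisense RNA KCNQ1OT1 at 0.0157 to 0.0195 FPKM. Neither was tested.

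Around IGF2R, 20 neighbours within 1 Mb were in the table and 10 were tested. With vehicle 1 of the 10 was called higher and 1 lower, and with pyridostatin 0 and 1. The shares over all tested genes were 6.4% higher and 3.01% lower with vehicle, and 7.07% and 3.85% with pyridostatin. The lower gene with both treatments was TCP1, a subunit of the cytosolic chaperonin (log2 fold changes −0.18 and −0.19, limma adjusted p = 0.0223 and 0.0167). The row of SNORA20, a gene for a small nucleolar RNA, held 0 in every wild-type library and passed the filter only through those labelled PARP3-/-, so nothing is drawn from its call with vehicle (limma adjusted p = 0.0103). With vehicle it was listed at 14.1, 8.42 and 28.2 FPKM in the libraries labelled PARP3-/-, and with pyridostatin at 0, 16.3 and 8.15 FPKM (limma adjusted p = 0.0908). AIRN, the antisense RNA that silences the mouse gene, was listed at 0 throughout, as was MAS1. ACAT2, MRPL18 and SNORA29 passed no test between genotypes, and PNLDC1 and SLC22A2 stayed below 0.03 FPKM in the group means.

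The IGF system around the pair was then examined by role. Apart from IGF2, the ligands IGF1 and INS were at or near 0 (at most 0.0161 and 0.0534 FPKM in the group means). The signalling receptor IGF1R was at 12.8 FPKM in both genotypes with vehicle, with log2 fold changes between genotypes of 0.00 (limma adjusted p = 0.999) and 0.01 (limma adjusted p = 0.947). INSR stayed at 0.579 to 0.638 FPKM in the group means. Of the adaptors that carry the receptor signal, with both treatments IRS1 was higher under the PARP3-/- label (0.30 and 0.28, limma adjusted p = 0.0336 and 0.0447). IRS2 was lower with both (−0.41 and −0.22, limma adjusted p = 0.00188 and 0.0478). These were 1 higher and 1 lower of 4 tested ligands, receptors and adaptors with each treatment. The shares over all tested genes were 6.4% higher and 3.01% lower with vehicle, and 7.07% and 3.85% with pyridostatin. IRS1 also rose with pyridostatin, by 0.48 in wild type and 0.45 in the other genotype (limma adjusted p = 0.00740 and 0.00821).

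Of the IGF binding proteins and the genes that act on them, 9 of 12 were tested, and with each treatment limma called 3 of them higher and 3 lower under the PARP3-/- label, beside 6.4% higher and 3.01% lower over all tested genes with vehicle and 7.07% and 3.85% with pyridostatin. The binding proteins hold IGFs outside the cell. IGFBP1 rose by 0.71 and 0.82 (limma adjusted p = 2.41e-04 and 8.99e-05) and IGFBP7 by 0.59 and 0.94 (limma adjusted p = 2.01e-04 and 7.28e-06). IGFBP3, the main carrier of IGFs in serum, fell from 82.2 ± 2.18 to 54.1 ± 4.35 FPKM with vehicle (SD, n = 3 each), with log2 fold changes of −0.60 and −0.55 under the 2 treatments (limma adjusted p = 1.42e-04 and 2.49e-04), and IGFBP2 fell as well (−0.57 and −0.43, limma adjusted p = 5.98e-04 and 0.00362). The stanniocalcins, which inhibit the protease PAPPA that cuts IGFBP4, moved apart, with STC1 higher (0.38 and 0.43, limma adjusted p = 0.0103 and 0.00479) and STC2 lower (−0.45 and −0.47, limma adjusted p = 6.19e-05 and 4.57e-05). PAPPA itself (0.29 and 0.13, limma adjusted p = 0.232 and 0.633), IGFBP4 and IGFBP6 were not called. The median of the 9 was 0.26 with vehicle and 0.13 with pyridostatin.

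**Figure D4:**
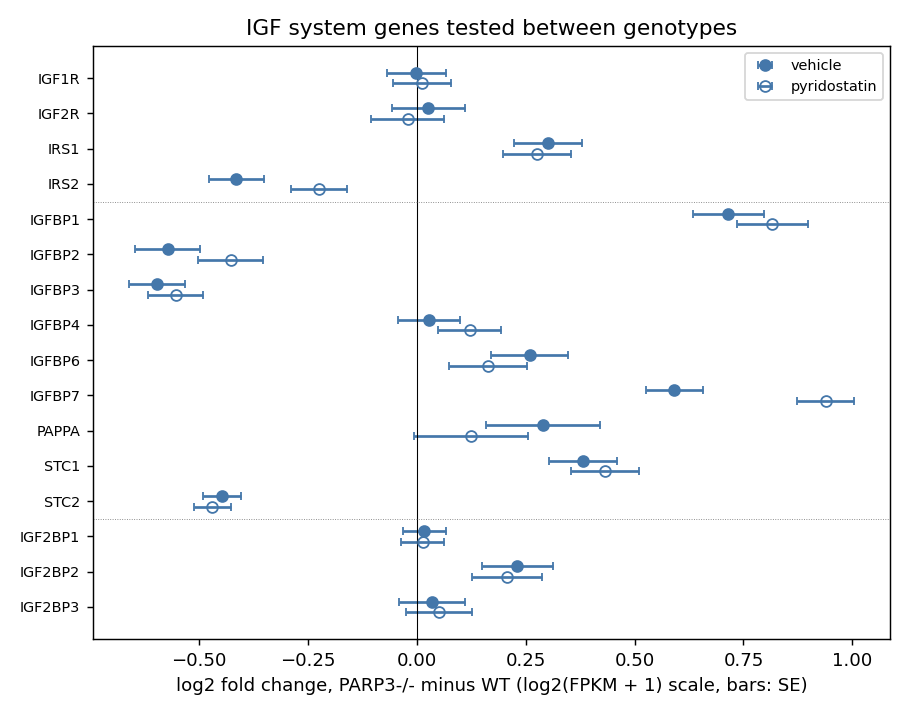
Log2 fold change between genotypes (horizontal axis, log2(FPKM + 1) scale, bars for the standard error) of tested receptors and adaptors, IGF binding proteins with their proteases and inhibitors, and IGF2 mRNA binding proteins, separated by dotted lines, with vehicle (filled) and pyridostatin (open). IGFBP1, IGFBP7, STC1 and IRS1 lay to the right of 0 and IGFBP3, IGFBP2, STC2 and IRS2 to the left, while IGF2R and IGF1R lay at 0 within their errors.

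Downstream and partner genes were counted in the same way, beside 9.41% of all tested genes called in either direction with vehicle and 10.9% with pyridostatin. The IGF2 mRNA binding proteins IGF2BP1, IGF2BP2 and IGF2BP3, which also bind H19, were all expressed and none of the 3 was called (differences of 0.02 to 0.23 with vehicle, 0.01 to 0.21 with pyridostatin). Of 20 genes of PI3K and AKT signalling, 0 were called with vehicle and 1 with pyridostatin, FOXO1 (0.29, limma adjusted p = 0.0479). FOXO1 had means of 0.805 and 0.861 FPKM in wild type with vehicle and pyridostatin. It passed the filter only through the libraries labelled PARP3-/- (1.11 and 1.28 FPKM), so nothing is drawn from its call. Of the 11 genes of mannose 6-phosphate sorting, the pathway of IGF2R, none was called with either treatment, with vehicle log2 fold changes between −0.10 and 0.14. Of the 36 lysosomal hydrolases, the cargo of that pathway, 4 were higher and 1 lower with vehicle and 5 and 1 with pyridostatin. The cathepsins CTSS (0.57 and 0.51, limma adjusted p = 8.18e-05 and 2.03e-04) and CTSH (0.48 and 0.40, limma adjusted p = 4.45e-04 and 0.00141) and the sulfatase IDS (0.45 and 0.41, limma adjusted p = 0.00412 and 0.00617) were higher, and the cathepsin CTSL was lower (−0.37 and −0.45, limma adjusted p = 0.00115 and 2.96e-04).

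Of 16 tested genes that set or keep imprints, 1 was called with each treatment, beside 9.41% and 10.9% of all tested genes. It was the de novo DNA methyltransferase DNMT3B, which was lower under the PARP3-/- label (−0.37 and −0.33, limma adjusted p = 0.00568 and 0.0103). CTCF, the insulator protein of the H19 control region, was at 22.1 to 23.3 FPKM in the group means (0.06 and −0.01, limma adjusted p = 0.270 and 0.861), and DNMT1, which copies methylation at replication, had log2 fold changes of 0.03 and 0.00 (limma adjusted p = 0.751 and 1.00). ZFP57, which protects imprints, was listed at 0. No methylation or allele was measured in these libraries.

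A list of imprinted genes elsewhere in the genome also held genes of their domains or of an imprinted network. Of its 24 tested genes, 3 were called higher and 1 lower with vehicle, and 5 and 1 with pyridostatin. The shares over all tested genes were 6.4% higher and 3.01% lower with vehicle, and 7.07% and 3.85% with pyridostatin. The growth factor receptor adaptor GRB10 (0.64 and 0.67, limma adjusted p = 8.30e-06 and 6.16e-06), the carboxypeptidase CPA4 (0.85 and 0.78, limma adjusted p = 6.14e-05 and 1.29e-04) and the maternally expressed long noncoding RNA MEG3 (0.54 and 0.55, limma adjusted p = 0.0259 and 0.0221) were higher in the libraries labelled PARP3-/-. DIRAS3, a RAS-related growth suppressor, was called higher with pyridostatin (0.48, limma adjusted p = 0.00428) and had a log2 fold change of 0.27 with vehicle (limma adjusted p = 0.0774). DDC, the neighbour of GRB10 and an enzyme of dopamine synthesis, was lower (−0.80 and −0.56, limma adjusted p = 1.52e-04 and 0.00164). A further list held let-7 targets, oncofetal genes, repressors of such genes and TGFBI, a target of miR-675. H19 is linked to the let-7 targets as a binder of let-7. Of the 12 tested genes of this list, 2 were higher and 1 lower with vehicle and 3 and 1 with pyridostatin, against the same shares. The chromatin protein HMGA2, a let-7 target, was higher (0.65 and 0.72, limma adjusted p = 0.00150 and 6.89e-04), as was TGFBI (0.28 and 0.30, limma adjusted p = 0.00160 and 8.47e-04), and EPCAM was lower (−0.53 and −0.48, limma adjusted p = 0.00126 and 0.00206). HMGA1 was called with pyridostatin (0.30, limma adjusted p = 0.0181). Over all these lists and both neighbourhoods, with H19 and IGF2R left out, 157 distinct genes were tested. With vehicle 15 of them were higher (9.55%) and 10 lower (6.37%), and with pyridostatin 19 (12.1%) and 10 (6.37%), shares that stand beside 6.4%, 3.01%, 7.07% and 3.85% over all tested genes.

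The genes whose pattern over the 12 libraries was most like that of H19, by the root mean square difference of centred log2(FPKM + 1), were DEFB1 (0.287), SPINK6 (0.301), CYP4F11 (0.305), CPS1 (0.343) and CES1 (0.416), beside a median of 1.15 over the 11880 other tested genes. All 5 were higher in wild type. CPS1, the first enzyme of the urea cycle, was the most abundant of them, at 12.7 ± 1.42 FPKM in wild type and 1.19 ± 0.104 FPKM in the libraries labelled PARP3-/- with vehicle (SD, n = 3 each). DEFB1, a beta-defensin, was at 7.63 ± 1.43 and 0.586 ± 0.373 FPKM. As they were picked for this likeness, it carries no test.

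Because pyridostatin binds G4 DNA, the RefSeq promoter windows (GRCh38.p14, 250 bases before to 50 after the start) were searched for a G4 pattern of 4 runs of at least 3 G with loops of 1 to 7 bases, on both strands. The window of IGF2R held the pattern and that of H19 did not, and 25% of the 35116 windows searched held it. No window was available for IGF2, so its promoter was not searched. The IGF2R window had 78.7% GC and 41 CpG, and the H19 window 57.7% GC and 6 CpG, where the median window had 14 CpG. The RefSeq start of H19 is that of its longest span, and 10 of the 12 GENCODE transcripts start more than 1000 bases inside it, so this window is not the start of most annotated H19 transcripts.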

How the data were processed

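The authors made stranded mRNA libraries, sequenced single-end 75-base reads, and deposited 1 table of FPKM values from cufflinks, with 1 column per library and no pooling. The submitters' processing notes also name STAR 2.5, bcl2fastq 2.16 and the builds hg19 and mm9. Here the FPKM values were used as deposited as log2(FPKM + 1), a pseudocount of 1 FPKM. limma 3.58.1 (R 4.3.3) fitted the 4 groups without a block (eBayes with a trend) over the 11881 genes whose mean level reached 1 FPKM, with Benjamini-Hochberg adjustment and a threshold of 0.05. Members below that mean were tested by exact two-sided permutation (scipy 1.17.1). Replicates are as labelled, and nothing more is said of how separate the cultures were, so p-values measure the spread between these libraries.

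The members and gene lists were chosen with earlier results of these data known. Genes named besides the members were up to 4 called genes per list and treatment with the smallest adjusted p, all neighbours within 200 kb (1 is not reported here), and the 5 genes most like H19. IGFBP2, STC1, HMGA1, and genes given as not called were named after their values were seen. Neighbours came from RefSeq (98.2% of tested genes matched). Depth was estimated from the lowest FPKM steps of 265 genes, with quartiles of 26800000 and 30100000 reads in 1 library. On simulated data for the vehicle comparison, with 11881 genes, limma recovered 89.6%, 97.0% and 100% of genes changed by 0.5, 1 and 2 on the log2 scale. Alternatives were another pseudocount (0.1), quantile normalization, a common median, no filter or a minimum mean of 5 FPKM, only the libraries compared, no trend, a replicate block, and leaving out each library. Counts were not used here.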

Additional observations from a re-analysis of the deposited data

How the results depend on the processing

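For IGF2 the alternatives run were the pseudocount of 0.1, no filter, no filter with another choice, and leaving out each library. Its genotype differences kept their direction under these. As its libraries did not overlap between genotypes, these choices could not reverse the sign, so nothing is drawn from that. Without a library of the comparison its exact permutation p was 0.2. The genotype differences of H19 kept their direction too, but H19 was chosen for them, so this is a description and no support. With a pseudocount of 0.1, with or without the filter on the mean, the H19 differences were −2.84 with vehicle and −3.07 with pyridostatin. With IGF2 in the fit (no filter), its differences of 0.41 and 0.43 passed the threshold, also with the replicate block (0.41 and 0.43), and were 1.30 and 1.29 with a pseudocount of 0.1. Each combination of no filter with another choice was added after the data were seen. The lowering of H19 by pyridostatin in wild type missed the threshold with a pseudocount of 0.1 (−0.44, limma adjusted p = 0.0632, or 0.0984 with no filter) and with only the 6 libraries compared (−0.40, adjusted p = 0.144), and in the libraries labelled PARP3-/- with no filter (−0.38, adjusted p = 0.0526). With 1 library left out it ran from −0.45 to −0.33 in wild type and from −0.45 to −0.30 in the other genotype. The cause was not tested.

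Values near 0 changed sign. The interaction of H19 was −0.23 with a pseudocount of 0.1 and ran from −0.0496 to 0.0994 with 1 library left out, and that of IGF2 was −0.0152, with or without the filter, and ran from −0.0263 to 0.0483. The IGF2R differences were −0.0157 (quantile normalization) and −0.0133 (common median) between genotypes with vehicle, and −0.0302 and −0.0287 for pyridostatin in wild type. With 1 library left out they ran from −0.0739 to 0.0864 and from −0.0682 to 0.0174 between genotypes, from −0.0962 to 0.0642 for pyridostatin in wild type, and from −0.107 to 0.0532 for the interaction. PARP3 with pyridostatin (0.19 to 0.26 with 1 library left out) passed the threshold without wild-type vehicle replicate 2 (adjusted p = 0.0398, within 0.0398 to 0.211 over its alternatives). Of the listed genes, 5 were lower with vehicle and 5 with pyridostatin at a mean of at least 5 FPKM, a stricter filter that leaves fewer genes tested, and 11 to 27 were higher with pyridostatin when 1 library was left out, the lowest count without pyridostatin replicate 3 of wild type or replicate 2 of the libraries labelled PARP3-/-.

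Same-numbered libraries share only a number. Their deviations from the group means correlated across genes at −0.120 to 0.216 (median 0.0577, over 0.1 in 2 of 12 pairs). The replicate block changed no call of H19 or IGF2R. Depth limits IGF2 in wild type and H19 in the libraries labelled PARP3-/-, where few reads lie behind a value.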
